A study of Mus musculus with 23 samples.

Results

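Adult red pulp macrophages carrying the label CreERT2 were compared with wild-type red pulp macrophages of adults, over all genes. The libraries were taken by their group labels, RPM_TAM_CreERT2 (4 libraries, numbered 1, 2, 4 and 5) and RPM_TAM_WT (2 libraries, numbered 1 and 3), and make up 6 of the 23 libraries of the series. Each library was made from 1000 macrophages sorted by flow cytometry from the spleen of C57BL/6 mice, and its messenger RNA was amplified from oligo-dT primers. CreERT2 is a Cre recombinase fused to a mutated estrogen receptor, which stays inactive until tamoxifen binds it. TAM stands in the names of both groups and was read as tamoxifen, which the labels do not spell out. The genotype labels are TAM_CreERT2 and WT. They do not name the promoter that drives CreERT2, the floxed gene, or the interval between induction and sorting. The series concerns PPARγ, and its design text speaks of a small number of surviving macrophages without Pparg. No label says that the libraries came from separate animals, so p-values measure only the spread between libraries, which may be technical. The main limma test takes that spread from 11 libraries fitted together, 5 of them from day-7 pups.

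PPARγ, the product of Pparg, is a nuclear receptor that is activated by lipid ligands and binds DNA together with a retinoid X receptor (RXR). It is best known for switching on genes of fatty acid uptake, transport and storage. Red pulp macrophages remove aged red blood cells from the circulation in the spleen, break down their heme and return the iron to the blood. Their development needs the transcription factor SPIC.

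The CreERT2 libraries were shallower than both wild-type libraries. Whole reads recovered from the deposited values numbered 1901913 and 4243379 in wild type, and 1484436, 692903, 1668714 and 1343734 in CreERT2 libraries 1, 2, 4 and 5. A two-sided exact permutation test of the means gave p = 0.133, the smallest that the 15 splits of 4 against 2 libraries allow, so no single value can pass 0.05 in this test. Depth and genotype therefore cannot be told apart. A read was worth 0.817 and 0.362 in wild type and between 0.941 and 2.22 in CreERT2, in the deposited unit of normalised read counts, which all levels below are given in. Genes with a value above 0 numbered 14205 and 14287 in wild type and between 13689 and 14313 in CreERT2. No pair of the 6 libraries was a duplicate, as chi-square per degree of freedom over genes ran from 10.1 to 38.4.

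Pparg itself (chr6:115360951-115490399, plus strand, GRCm38) was not lower in CreERT2. It was at 92.3 and 168 in the wild-type libraries and at 261, 182, 251 and 225 in the CreERT2 libraries. Each CreERT2 library lay above both wild-type libraries, with a log2 difference of 0.86 (95% confidence interval 0.10 to 1.63) that missed the threshold (limma adjusted p = 0.60). The table holds 1 value per gene and no exons, so this level does not test whether part of the gene had been removed. Rxra, which encodes the usual partner of PPARγ, stood at 147 and 162 against 179.5, 153, 200.4 and 157, and the groups overlapped (log2 difference 0.15, limma adjusted p = 0.928). Rxrb, another RXR gene, was at 62.9 and 39.1 against 17.0, 11.1, 16.0 and 24.4, with every CreERT2 library below both wild-type libraries and an interval that reached from -3.45 to 0.39 (adjusted p = 0.725). Ppara was at 0 in all 6 libraries, and Ppard lay between 3.41 and 33.2 in them. Of 16 tested receptors and cofactors of this family, none passed the test.

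Spic, the gene of the transcription factor that defines these cells, was at 1246 and 1107 in wild type and at 748, 423, 928 and 949 in CreERT2 (log2 difference -0.69, interval -1.28 to -0.10, limma adjusted p = 0.579). All CreERT2 libraries were below both wild-type libraries, and library 2, the shallowest, was lowest.

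The sorted cells carried the markers of red pulp macrophages in both groups. Vcam1, the adhesion molecule used to sort such cells in many studies, was at 7797 and 8490 in wild type and 10940, 7594, 8159 and 11380 in CreERT2. The interval of its log2 difference ran from -0.15 to 0.56, so a change of 1 log2 unit either way lies outside it. Slc40a1, the gene of the iron exporter ferroportin, was at 4414 and 6533 against 6379, 5203, 5819 and 6043 (difference 0.12, interval -0.22 to 0.47). Adgre1, which encodes the F4/80 antigen, was at 1008 and 1220 against 1280, 527, 1120 and 1212. These ranges overlapped between the groups. Hmox1, the gene of heme oxygenase 1, which opens the heme ring, was at 4561 and 6365 against 3080, 2577, 2549 and 3086. All 4 CreERT2 libraries were below both wild-type libraries, but the difference of -0.94 did not pass (limma adjusted p = 0.350). Among all 16650 genes tested, CreERT2 libraries lay all below the wild-type libraries in 7.6% and all above them in 6.07%.

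**Figure D1:**
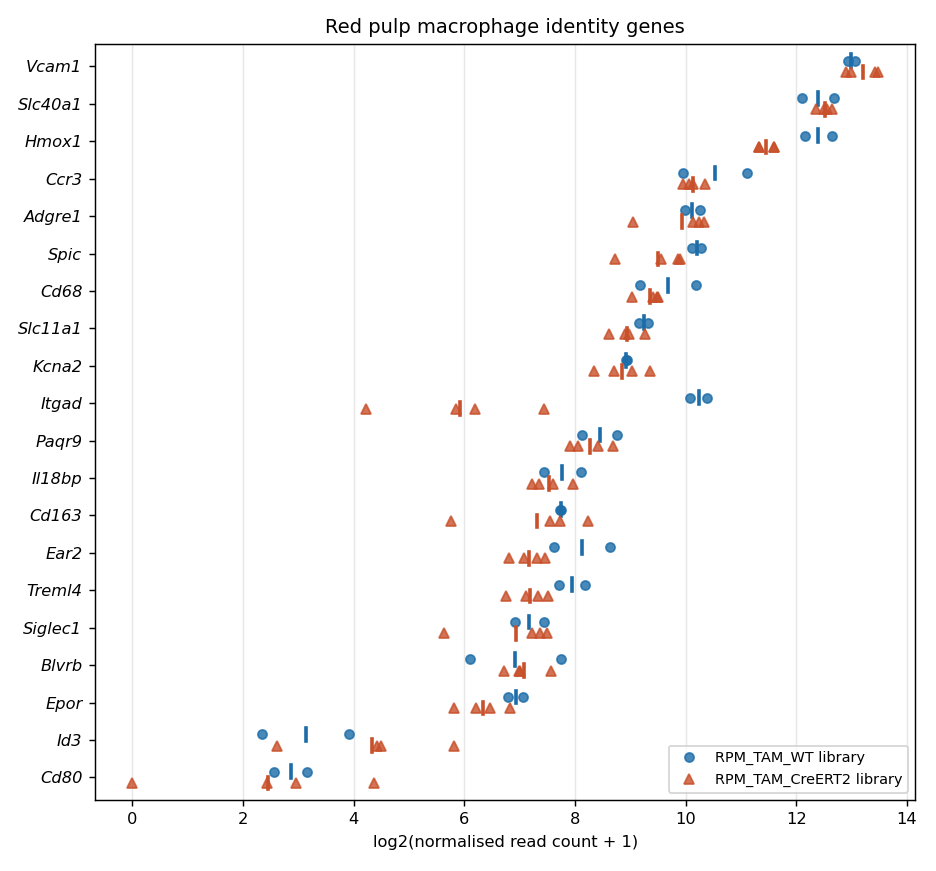
Levels of 20 red pulp macrophage genes in each adult library, as log2(normalised read count + 1) on the horizontal axis; circles are the 2 RPM_TAM_WT libraries, triangles the 4 RPM_TAM_CreERT2 libraries and vertical bars the group means. Itgad is the member whose groups stand apart most (1337 and 1080 against 56.8, 17.7, 173 and 71.9), whereas Vcam1 and Slc40a1 overlap.

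Of the 20 identity genes, 1 passed the test (5%, beside 0.144% of all genes), the integrin gene Itgad, which fell. The list's median log2 difference was -0.31, beside 0.00 over all genes tested. In every CreERT2 library, 5 of the 20 were below both wild-type libraries (25%, beside 7.6% of all genes). Treml4, a receptor of red pulp macrophages and dendritic cells, was at 208 and 288 against 137, 159.5, 182 and 107 (difference -0.77, adjusted p = 0.585). Ear2, an eosinophil-type ribonuclease that red pulp macrophages also express, was at 197 and 394 against 134, 175, 111 and 158 (difference -0.96, limma adjusted p = 0.422). Ccr3, a chemokine receptor gene, was at 991 and 2217 against 1307, 990.5, 1122 and 1068, and wild-type library 1 lay inside the range of the CreERT2 libraries. Cd163, which encodes the receptor for hemoglobin bound to haptoglobin, was at 214 and 212 against 299, 53.2, 211 and 185. Here CreERT2 library 2 stood below all others and library 1 above them. None of the 18 pan-macrophage genes tested passed, and their median difference was 0.05. In bulk libraries, fewer cells of a kind and less RNA per cell cannot be told apart.

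Across all genes, 24 of 16650 passed the limma test (0.144%), 10 higher (0.0601%) and 14 lower (0.0841%) in CreERT2. Unadjusted p was under 0.05 for 1244 genes (7.47%). Groups did not overlap for any of the 24, while 13.7% of all genes tested were without overlap. The 24 were picked by a test on these same libraries, so this adds no support of its own. The genes that fell include the fatty acid carrier Fabp4, the integrin Itgad, the protease inhibitor Slpi and the adaptor Sh2d1b1. Those that rose include the endocytic adaptor Dab2, the bridging ligand Gas6, the collagenase Mmp13, the lectins Cd209f and Clec7a, and both adult α-globin genes. The limma adjusted p was 0.0432 for each called gene below for which no other value is given.

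**Figure D2:**
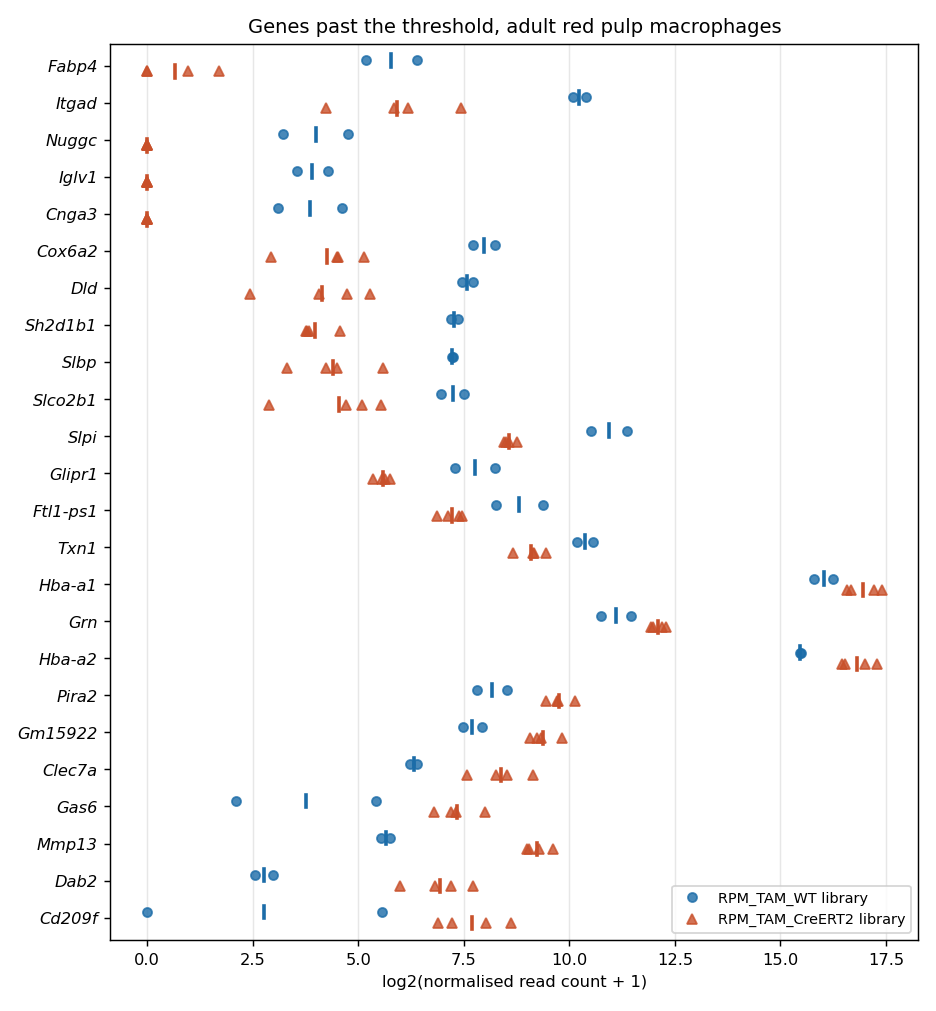
The 24 genes past the threshold in each adult library, as log2(normalised read count + 1) on the horizontal axis; circles are RPM_TAM_WT libraries, triangles RPM_TAM_CreERT2 libraries and vertical bars the group means. Nuggc, Iglv1 and Cnga3 sit at 0 in all 4 CreERT2 libraries, and the wild-type libraries are far apart for Cd209f (0 and 45.9) and Gas6 (3.27 and 41.6).

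The calls differed in how they held across tools and libraries. Of the 24, 17 were also called by edgeR's quasi-likelihood test on the recovered reads, and the same 17 by DESeq2 as well. Cd209f, Cnga3, Gas6, Grn, Hba-a1, Iglv1 and Nuggc were not called by edgeR. All 24 kept their direction in every alternative fit in which they were tested. Only Dab2 passed limma in each of the 6 fits that left out 1 adult library. Hba-a2, Sh2d1b1 and Slpi were lost without wild-type replicate 1 only, and Itgad without either wild-type replicate. All other called genes passed in at most 2 of the 6 fits. Without wild-type replicate 1, 2 genes passed in all, and without CreERT2 replicates 1, 2, 4 and 5 the numbers were 5, 6, 11 and 6.

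Fabp4 (chr3:10204088-10208576, minus strand), which carries fatty acids in the cytosol and is a classical target of PPARγ, was nearly absent in CreERT2. It was at 82.5 and 35.5 in wild type and at 2.27, 0, 0.941 and 0 in CreERT2. The CreERT2 libraries held 3 reads of it in all against 199 in wild type. With the libraries' depths taken into account, the rate was 52.8 times higher in wild type, with a 95% counting interval from 17.8 to 258 that covers counting error only. On the log2(value + 1) scale Fabp4 fell by 5.12 (interval -7.09 to -3.15).

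The other genes of fatty acid uptake and storage did not follow Fabp4 past the threshold. Of 19 tested members, 1 passed (5.26%, beside 0.144% of all genes), and the median difference was -0.35. In every CreERT2 library, 4 were below both wild-type libraries (21.1%, beside 7.6% of all genes). Cd36, the scavenger receptor that takes up fatty acids, was at 144 and 217 against 144, 46.5, 75.3 and 113, with CreERT2 library 1 at the level of wild-type library 1 (difference -1.01, limma adjusted p = 0.554). Gpd1, which makes glycerol phosphate for lipid synthesis, was at 20.4 and 40.9 against 6.82, 0, 17.9 and 0 (difference -3.10, adjusted p = 0.477). Lpl, the gene of lipoprotein lipase, was at 346 and 348 against 316, 248, 298 and 200.3, every CreERT2 library being lower by a small amount (difference -0.41). Plin2, which coats lipid droplets, was at 381 and 218 against 256, 332, 354 and 584. Pltp, the phospholipid transfer protein gene, lay in the opposite direction, at 144 and 231 against 256, 357, 242 and 308 (difference 0.65, limma adjusted p = 0.663). Of 12 genes regulated by the liver X receptors, which control cholesterol efflux, none passed. Apoe and Abca1 overlapped between groups with differences of 0.36 and 0.26.

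Itgad (chr7:128154376-128223816, plus strand) encodes integrin αD, which pairs with the β2 chain on splenic macrophages. Its level was 1337 and 1080 in wild type and 56.8, 17.7, 173 and 71.9 in CreERT2. It fell by 4.30 on the log2 scale, 19.8-fold (interval -5.57 to -3.04, limma adjusted p = 0.00289). The gene of the β2 chain, Itgb2, was at 332 and 479 against 359, 262, 306 and 275 and did not pass (difference -0.42). Of 14 leukocyte integrin genes tested, Itgad alone passed (7.14%, beside 0.144% of all genes).

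Cox6a2 (chr7:128205435-128206387, minus strand), a subunit of mitochondrial cytochrome oxidase, lies wholly inside the span of Itgad on the opposite strand, and the annotated exons of the 2 genes share 70 bases. It was at 302 and 211 against 21.6, 6.65, 33.9 and 21.8 and fell by 3.72. Whether reads were assigned by strand is not recorded, and those of Itgad and Cox6a2 in the shared bases cannot be told apart. A like case is Glipr1 (chr10:111985448-112002631, minus strand), a secreted protein of the pathogenesis-related family, at 301 and 154 against 39.8, 53.2, 48.9 and 46.2 (fell by 2.18). Its end overlaps that of Krr1, a ribosome assembly gene on the other strand, over 352 exonic bases. Krr1 was at 281 and 142 against 50, 26.6, 53.6 and 60.4 and was called by edgeR (adjusted p = 0.0432) but not by limma (adjusted p = 0.0878).

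Slpi, Sh2d1b1 and Slco2b1 were lower in every CreERT2 library by a wide margin. Slpi (chr2:164354070-164389095, minus strand), a secreted inhibitor of neutrophil proteases, was at 2622 and 1469 against 430.5, 348, 381 and 359.6. It fell by 2.37 (interval -3.13 to -1.61, limma adjusted p = 0.00761), and the CreERT2 libraries spread far less than the wild-type pair. Sh2d1b1 (chr1:170277320-170286769, plus strand), which encodes the adaptor EAT-2 of SLAM family receptors, was at 164 and 145 against 12.5, 13.3, 22.6 and 12.8 (fell by 3.29, limma adjusted p = 0.00289). Slco2b1 (chr7:99657804-99711340, minus strand), a transporter of organic anions, was at 124 and 182 against 25.0, 33.2, 45.2 and 6.42, with library 5 lowest, and fell by 2.69.

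Of the remaining genes that fell, several serve general cell functions. Txn1 (thioredoxin, a reducing protein) was at 1162 and 1501 against 562, 408, 569 and 695 and fell by 1.27. Dld, a shared subunit of the mitochondrial 2-oxoacid dehydrogenases, was at 209 and 174 against 15.9, 4.43, 37.6 and 25.7, and Slbp, which binds the stem-loop of histone messages, at 150.2 and 148 against 21.6, 17.7, 47.0 and 8.99. Their falls of 3.45 and 2.82 rest on 76 and 84 reads in the 4 CreERT2 libraries together. Ftl1-ps1, a near copy of the ferritin light chain gene Ftl1, was at 305 and 662 against 167, 115, 176 and 139 and fell by 1.60, with a difference of -1.05 without wild-type library 3. Reads of such copies may be split between them. Ftl1 was at 11510 and 14390 against 9443, 8995, 8344 and 8508, lower in every CreERT2 library without passing (difference -0.55, limma adjusted p = 0.363).

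Nuggc, Cnga3 and Iglv1 had no read in any CreERT2 library, and their fitted differences depend on the pseudocount. Against a floor of 3 reads in each CreERT2 library, the mean level was at least 4.12-fold lower for Nuggc, at least 3.74-fold lower for Cnga3 and at least 3.48-fold lower for Iglv1. Nuggc is a GTPase of germinal centre B cells, at 26.1 and 8.32 in wild type, and Iglv1, a variable segment of the immunoglobulin lambda light chain, was at 10.6 and 18.4. Cnga3, a cyclic nucleotide-gated channel, was at 23.7 and 7.60. It was at 0 in the day-7 libraries of the fit as well, so it passed the filter only through the wild-type libraries. The direction of the Cnga3 difference was thereby fixed in advance, and its limma call carries no support (edgeR adjusted p = 0.465). B and plasma cell markers also lay lower. Of 15 tested, 7 were below both wild-type libraries in every CreERT2 library (46.7%, beside 7.6% of all genes), Cd79a, Cd79b and Ms4a1 among them. Of the same 15, 0 were above, and none passed limma. Their summed level was 2409 to 2666 in wild type and 1487 to 1986 in CreERT2. Cd79b, a chain of the B cell receptor, was at 183 and 221 against 57.9, 99.7, 112 and 41.1 (difference -1.47, limma adjusted p = 0.190). The part of B cells in the Nuggc and Iglv1 differences was not tested.

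Of the genes that rose, Dab2 had the lowest adjusted p. Dab2 (chr15:6299788-6440712, plus strand), an adaptor that links receptors to clathrin for endocytosis, was at 4.90 and 6.87 in wild type and at 210.1, 62.0, 111 and 145 in CreERT2. The difference was 4.16, 17.8-fold (interval 3.21 to 5.10, limma adjusted p = 0.000209), and edgeR gave an adjusted p of 0.000831. In wild type it rested on 25 reads and in CreERT2 on 444. All 18 alternative fits called it.

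The genes of 3 secreted proteins, Gas6, Mmp13 and Grn, rose. Gas6 (chr8:13465374-13494490, minus strand) encodes the ligand that bridges dying cells to the receptors AXL and MERTK. It was at 3.27 and 41.6 against 158, 257, 110.1 and 145 (difference 3.57) and the wild-type libraries were far apart, at 4 and 115 reads. Without wild-type library 1 the difference was 1.91 and not called (limma adjusted p = 0.613). Axl, one of its receptors, lay the other way, at 2507 and 2541 against 1419, 751, 1450 and 1493, every CreERT2 library being lower (difference -1.03, limma adjusted p = 0.104). Mertk was at 456 and 735 against 674, 636, 722 and 524. Mmp13 (chr9:7272514-7283331, plus strand), a collagenase, was at 45.7 and 53.2 against 626, 529.6, 509 and 781, a difference of 3.58. Grn (chr11:102430315-102437048, plus strand), the gene of progranulin, a secreted and lysosomal growth factor precursor, was at 1716 and 2833 against 4057, 4673, 3912 and 4971 (difference 0.99, and 0.63 without wild-type library 1).

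Of 25 efferocytosis and complement genes tested, Gas6 alone passed (4%, beside 0.144% of all genes), with a median difference of 0.27. In every CreERT2 library, 5 were above both wild-type libraries and 3 below (20% and 12%, beside 6.07% and 7.6% of all genes). C1qc, a chain of the first complement component, was at 4262 and 4107 against 7147, 7341, 5752 and 7729, higher in each CreERT2 library (difference 0.73, limma adjusted p = 0.0960). C3ar1, the receptor of complement fragment C3a, was at 7.35 and 29.3 against 68.2, 66.5, 92.2 and 107 (difference 2.38, adjusted p = 0.0878), also without overlap. C4b, a component of the classical pathway, was at 18.0 and 48.1 against 146, 297, 250.2 and 166 (difference 2.76, limma adjusted p = 0.168). Of 25 lysosome genes, Grn alone passed (4%, beside 0.144% of all genes), with a median of 0.20.

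The lectin genes Cd209f and Clec7a rose. Cd209f (chr8:4102787-4105835, minus strand), a mouse homolog of DC-SIGN, was at 0 and 45.9 against 261, 117, 148 and 392 (difference 4.91, limma adjusted p = 0.0463). Wild-type library 1 held no read of it and library 3 held 127. The difference was 2.14 without wild-type library 1 and 7.69 without library 3, and the call was lost without wild-type library 1 or any single CreERT2 library. Its neighbour in the family Cd209g was at 0 and 34.7 against 102, 22.2, 35.8 and 141, and the groups overlapped. Clec7a (chr6:129461591-129472779, minus strand) encodes dectin-1, a receptor for fungal β-glucans, and the annotation lists it as a polymorphic pseudogene. It was at 74.3 and 82.5 against 563, 304, 369 and 190.1, 4.19-fold higher. Of 19 C-type lectin genes, Cd209f and Clec7a were the only ones called (10.5%, beside 0.144% of all genes), with a median difference of 0.41. In every CreERT2 library, 5 lay above both wild-type libraries (26.3%, beside 6.07% of all genes). Clec4a1, another member, was at 366 and 341 against 633, 658, 653 and 616 (difference 0.86, adjusted p = 0.428).

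Pira2 (chr7:3836812-3845051, minus strand), an activating paired immunoglobulin-like receptor, was at 364 and 223 against 694, 844, 1127 and 841, 3.02-fold higher. Gm15922 (chr7:3731630-3739889, minus strand), annotated as a polymorphic pseudogene in the same cluster, was at 243 and 177 against 538, 605, 914 and 645, 3.18-fold higher. Genes of this family are near copies, so the share of reads each received is uncertain.

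Both adult α-globin genes rose. Hba-a2 (chr11:32296489-32297298, plus strand) was at 45820 and 44890 against 132100, 89990, 94110 and 160100 (difference 1.35, limma adjusted p = 0.00289). Hba-a1 (chr11:32283511-32284465, plus strand) was at 57110 and 77620 against 153300, 97780, 103500 and 172700 (difference 0.94). The 2 genes are near copies and may share reads. Globin genes took 7.44 and 10.9% of all signal in wild type and 18.6, 12.7, 14.3 and 20.7% in CreERT2, with p = 0.133 in the exact permutation test. Rescaling the libraries to equal sums over all other genes left the number of calls at 24, all of them shared. The β-globin genes did not follow. Hbb-bs was at 7855 and 31230 against 17280, 3869, 15100 and 14090 (difference -0.52), and Hbb-bt overlapped likewise. Of 23 erythroid genes tested, the α-globins were the only ones called or without overlap (8.70%). Of all genes tested, 0.144% were called and 13.7% were without overlap. The median difference of the erythroid genes was -0.12. Alas2, the first enzyme of heme synthesis in red cell precursors, was at 326 and 766 against 520.2, 195, 280.3 and 416. The summed erythroid level was 117659 to 171336 in wild type and 196370 to 358607 in CreERT2, and the part of adhering or engulfed red cell precursors was not tested.

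Promoters were searched because the series concerns a DNA-binding receptor and red pulp macrophages depend on SPIC, an ETS factor. Of the 24 called genes, 16 have at least 1 of 21 promoter windows in RefSeq (GRCm38.p6), each of 300 bases from 250 before to 50 after a transcription start. The PPAR:RXR element was written as 2 copies of the half-site AGGTCA with 1 base between, on either strand. It is in 13 of 32851 promoters of the mouse (0.0396%) and in 0 of the 21. The half-site AGGTCA alone is in 5340 (16.3%) and also in 0 of the 21. An ETS core as bound by PU.1 and SPIC, GAGGAAGT on either strand, is in 1052 promoters (3.20%) and in 2 of the 21, those of Pira2 and Slco2b1. These are shown on the gene's strand, 5′ to 3′, with the core in capitals. The Pira2 window is chr7:3845002-3845301 (minus strand), with the core starting 148 bases before the start site, and the Slco2b1 window is chr7:99711291-99711590 (minus strand).
Pira2: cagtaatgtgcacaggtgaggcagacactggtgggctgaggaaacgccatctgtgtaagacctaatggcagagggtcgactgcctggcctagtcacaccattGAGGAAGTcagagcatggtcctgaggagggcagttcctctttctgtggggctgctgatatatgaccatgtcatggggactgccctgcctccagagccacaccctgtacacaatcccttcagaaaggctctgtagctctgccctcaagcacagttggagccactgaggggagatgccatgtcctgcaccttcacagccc
Slco2b1: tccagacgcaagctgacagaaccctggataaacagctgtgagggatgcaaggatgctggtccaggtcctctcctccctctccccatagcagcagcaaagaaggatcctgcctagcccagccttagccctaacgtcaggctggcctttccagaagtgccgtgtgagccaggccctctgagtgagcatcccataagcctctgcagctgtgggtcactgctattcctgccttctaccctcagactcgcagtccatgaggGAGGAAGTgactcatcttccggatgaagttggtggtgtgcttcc
Pira2 rose and Slco2b1 fell. A match is a description of these letters, and enhancers outside the windows were not searched.

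edgeR called 23 of 12939 genes (0.178%), 6 higher (0.0464%) and 17 lower (0.131%). Those called by edgeR and not by limma were all lower: Krr1, Plpp1, Flna, Lgals1, Gm45205 and AC034099.1. Plpp1, a phosphatase of lipid phosphates, was at 229.5 and 149 against 40.9, 24.4, 82.8 and 29.5 (edgeR adjusted p = 0.0464, limma adjusted p = 0.0703). Flna, which crosslinks actin filaments, was at 452 and 339 against 143, 177, 131 and 160.5 (edgeR adjusted p = 0.0464). Lgals1, the gene of galectin 1, was at 18.8 and 70.5 against 7.95, 13.3, 10.3 and 11.6, with a limma difference of -1.69 that was -2.62 without wild-type library 1 and -0.77 without library 3. DESeq2 called 135 of 21321 genes (0.633%), 66 higher (0.31%) and 69 lower (0.324%).

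Some wide differences without overlap did not pass limma. Folr2, a folate receptor gene of tissue macrophages, was at 0 and 10.1 against 75.0, 44.3, 20.7 and 59.1 (difference 3.79, limma adjusted p = 0.243). Mfge8, which bridges dying cells to integrins, was at 40.8 and 372 against 19.3, 0, 0.941 and 7.71 (difference -4.86, limma adjusted p = 0.187), with the wild-type pair itself far apart. Ubd, a ubiquitin-like modifier, was at 81.7 and 31.1 against 6.82, 0, 0 and 1.28 (difference -4.65). Mmp9, a gelatinase, was at 0.817 and 0 against 12.5, 86.4, 11.3 and 24.4, with 1 read in wild type against 81 in CreERT2, a ratio of rates of 102 (counting interval 17.8 to 4071). In Ly6c1, a surface antigen of endothelium and leukocytes, library 5 alone reached a high level (0 and 2.53 against 10.2, 28.8, 17.9 and 1528).

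Of 23 chemokine and receptor genes tested, 15 lay above 0 (65.2%, beside 49.9% of all genes) and none passed. In every CreERT2 library, 8 were above both wild-type libraries (34.8%, beside 6.07% of all genes) and 1 was below. The median difference was 0.89. Ccr3, Cxcl9 and Cxcr4, the highest members, overlapped between the groups, with differences of -0.41, 0.47 and 0.89. The summed level of the list also overlapped, at 2413 to 3347 in wild type and 2565 to 3402 in CreERT2. Ccl2, which draws monocytes, was at 9.80 and 30 against 87.5, 84.2, 54.6 and 114 (difference 2.19, limma adjusted p = 0.568). Cxcl16, a membrane-bound ligand, was at 58.0 and 18.8 against 144, 428, 97.8 and 109 (difference 2.24, adjusted p = 0.215). Il1b, the gene of interleukin 1β, was at 238 and 140.3 against 543, 787, 561 and 398 (difference 1.60, limma adjusted p = 0.145), yet the 19 inflammatory genes had a median of -0.20. Among macrophage transcription factor genes, Maf was at 1012 and 1305 against 2569, 2387, 2204 and 2306, without overlap (difference 1.04, limma adjusted p = 0.111). None of the 21 tested passed, and 5 were above both wild-type libraries in every CreERT2 library (23.8%, beside 6.07% of all genes).

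Of 10 MHC class II genes, 9 lay below 0 (90%, beside 49.5% of all genes), again without a call, and the median was -0.77. In every CreERT2 library, 4 were below both wild-type libraries (40%, beside 7.6% of all genes). The summed level of the list overlapped, at 6082 to 12068 in wild type and 5926 to 8719 in CreERT2. Cd74, the invariant chain, was at 1346 and 1205 against 469, 308, 966 and 398 (difference -1.39, adjusted p = 0.243). H2-Aa was at 3929 and 1775 against 2132, 3339, 3279 and 2559 and overlapped. The differences of H2-Aa, H2-Ab1 and H2-Eb1 were 0.07, -0.08 and -0.10. Among 18 antioxidant genes, 5 were below (27.8%, beside 7.6% of all genes) and 0 above both wild-type libraries in every CreERT2 library (median -0.44). Their summed level overlapped, at 13965 to 21483 in wild type and 13973 to 22842 in CreERT2. Gpx1, a glutathione peroxidase, was at 2629 and 3310 against 1704, 1292, 1627 and 2413 (difference -0.78, limma adjusted p = 0.301). None of the 20 iron and heme genes passed (median 0.08). Cp, the gene of ceruloplasmin, which oxidises iron for export, was at 17.1 and 39.8 against 94.3, 166, 111 and 87.3 (difference 2.04, adjusted p = 0.200). Tfrc, the transferrin receptor gene, was at 644 and 722 against 495, 210.5, 381 and 503 (difference -0.86, limma adjusted p = 0.579).

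**Figure D3:**
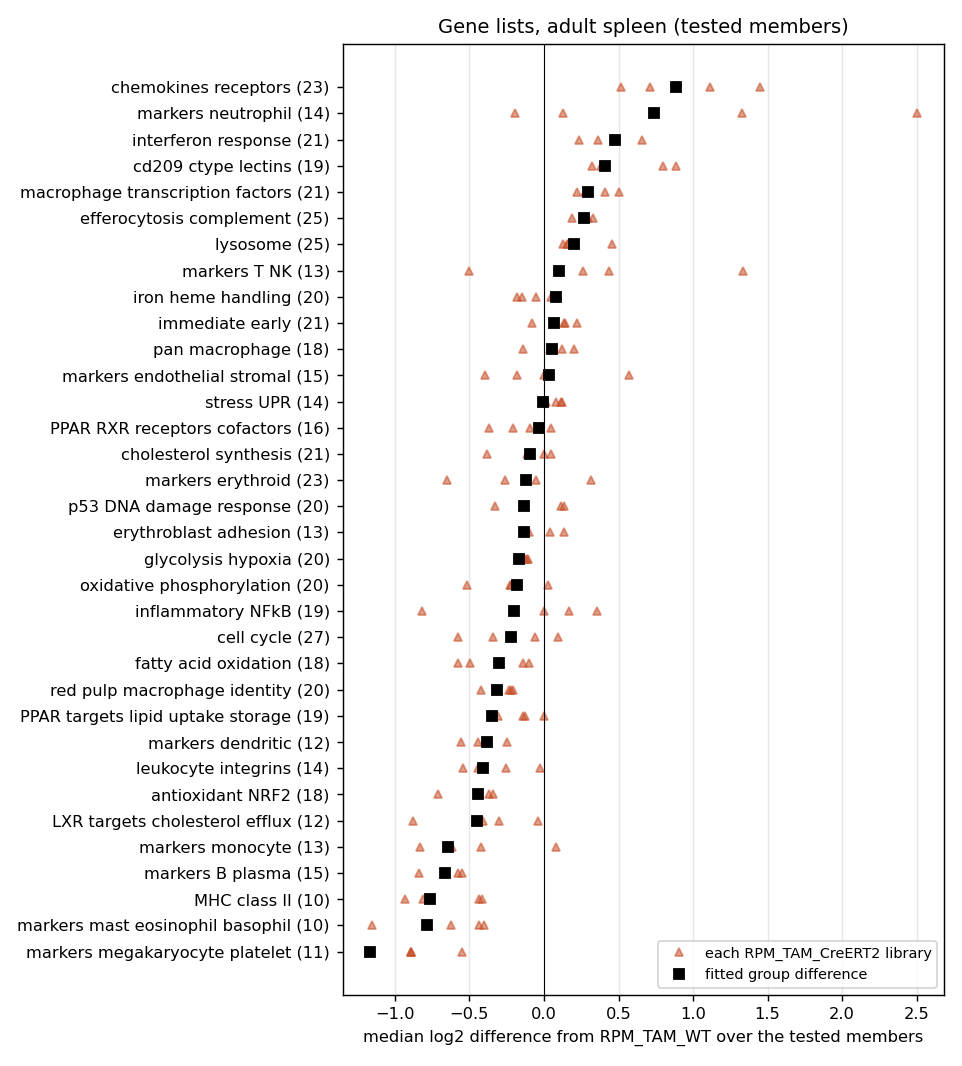
Median log2 difference from RPM_TAM_WT over the tested members of 34 gene lists, with the number of members in brackets; triangles are the 4 RPM_TAM_CreERT2 libraries, each against the wild-type mean, and squares the fitted difference. Chemokine genes (0.89) and platelet markers (-1.17) lie at the ends, and the libraries spread most for neutrophil markers.

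Markers of other cell types were present in both groups, with the erythroid sum, given above with the globins, the highest. The summed level of 13 tested T and NK cell markers was 266 to 315 in wild type and 528 to 1055 in CreERT2, most of it Cd4 (172 and 162 against 453, 997, 448 and 645, difference 1.84, limma adjusted p = 0.0878). Cd3e, which defines T cells, was at 23.7 and 12.7 against 10.2, 17.7, 6.58 and 3.85. The neutrophil sum was 122 to 1115 against 279 to 824, with Camp and Ngp at 0 in wild-type library 1 and at 96.2 and 282 in library 3. Monocyte markers summed to 1256 to 1521 in wild type and 609 to 1041 in CreERT2, and dendritic cell markers to 536 to 717 and 393 to 570. Tubb1 of platelets and Epx and Il5ra of eosinophils were at 0 in all 6. Apart from the α-globins, no member of these marker lists was called. The part of these cells in the differences above was not tested.

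The same genes were then set beside day-7 spleen macrophages in which Cre was driven by Vav, a gene active in blood-forming cells (RPM_d7_vavCre, 3 libraries, against RPM_d7_WT, 3 libraries). These came from pups of the same strain, held 11618404 to 21744118 recovered reads, and were normalised in a separate table, so values are given side by side with no test across the tables. In that comparison 835 of 15130 genes passed limma (5.52%), 451 higher (2.98%) and 384 lower (2.54%). Of the 24 adult calls, 21 were tested there, 15 were called and 13 in the same direction. Those 13 are 54.2% of the adult calls and 1.56% of the vavCre calls: Cd209f, Cox6a2, Dab2, Fabp4, Gas6, Glipr1, Grn, Itgad, Mmp13, Sh2d1b1, Slco2b1, Slpi and Txn1. Hba-a1 and Hba-a2 were called in the opposite direction there (-1.16 and -1.05). Cnga3, Dld, Ftl1-ps1, Iglv1, Pira2 and Slbp were not called in vavCre, and Clec7a, Gm15922 and Nuggc were not tested in that table.

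The sizes of the shared changes are given as log2 differences, adults first. Fabp4 differed by -5.12 and -4.97. Dab2 rose by 4.16 and 2.84, Gas6 by 3.57 and 2.70, and Grn by 0.99 and 0.99. Without wild-type library 1 the adult values of Gas6 and Grn were 1.91 and 0.63. Itgad differed by -4.30 and -6.35, Sh2d1b1 by -3.29 and -6.54, and Slpi by -2.37 and -4.08. Pparg, not lower in adults, rose in vavCre by 0.74 (limma adjusted p = 0.0313), and Spic fell there by 0.69 (adjusted p = 0.00116).

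Most genes called in vavCre lay in the same direction in adult CreERT2. These genes were chosen for their vavCre difference and the tables differ in scale, on which the pseudocount acts unequally, so the sizes are a description and were not compared. Of the 442 genes higher in vavCre and tested here, 326 (73.8%) were above 0 in adults, beside 49.9% of all genes tested and 47.1% of those tested in both tables. Their median log2 difference was 1.12 in vavCre and 0.34 in adults. All CreERT2 libraries were above both wild-type libraries for 110 (24.9%), beside 6.58% of the 13757 genes tested in both tables. Of the 381 genes lower in vavCre, 318 (83.5%) were below 0 here, beside 49.5% of all genes tested and 52.5% of those tested in both tables, with medians of -1.33 and -0.62. All CreERT2 libraries were below for 129 (33.9%, beside 8.41%). In the 4 CreERT2 libraries taken one at a time, the medians were 0.44, 0.24, 0.34 and 0.49 for the first set and -0.55, -0.85, -0.49 and -0.55 for the second. Leaving out each adult library in turn gave medians from 0.30 to 0.48 and from -0.73 to -0.54.

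**Figure D4:**
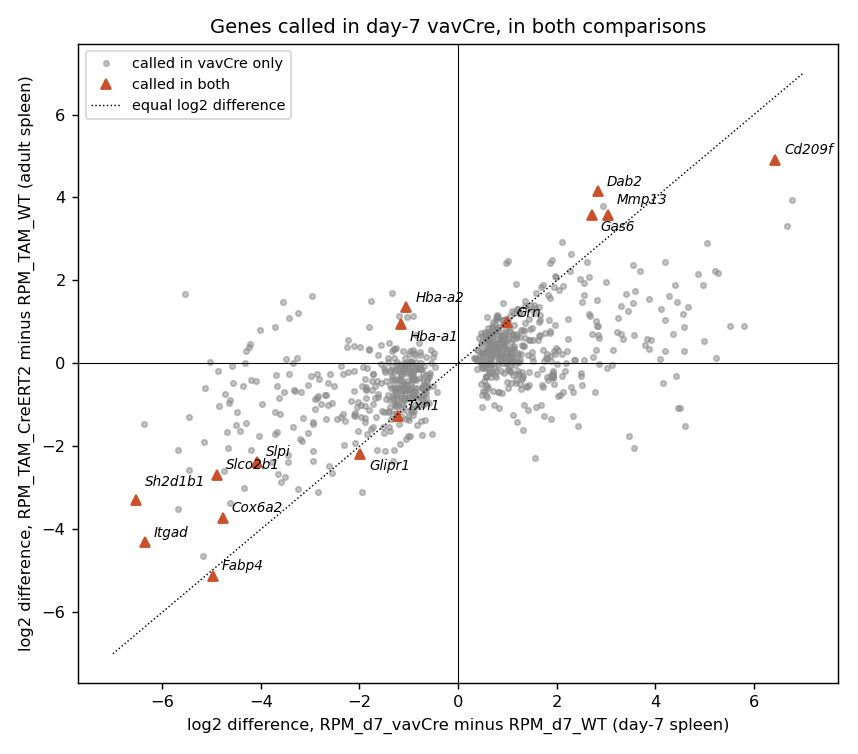
Log2 differences of genes called in day-7 vavCre, with vavCre minus wild type on the horizontal axis and adult CreERT2 minus wild type on the vertical axis; triangles are the 15 genes called in both and the dotted line marks equal differences. Of the genes higher in vavCre, 326 of 442 lie above 0 in adults, 318 of the 381 lower ones lie below 0, and Hba-a1 and Hba-a2 lie in the opposite quadrant.

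Some of the genes with the largest vavCre changes overlapped between the adult groups, and others did not. Stab1, a scavenger receptor of macrophages and sinusoidal endothelium, rose by 5.22 in vavCre but was at 27.8 and 27.5 against 35.2, 33.2, 27.3 and 27.0 in adults (difference 0.14, interval -1.10 to 1.37). Clec4b1, a C-type lectin gene, fell by 5.02 in vavCre and was at 40.8 and 82.8 against 38.6, 84.2, 85.6 and 43.7 in adults (interval -0.90 to 0.95). Spp1, the gene of osteopontin, rose by 5.79 in vavCre and had no read in 4 of the 6 adult libraries. Id2, an inhibitor of helix-loop-helix factors, fell by 3.30 in vavCre and differed by -0.68 in adults (3501 and 1707 against 1963, 1706, 1391 and 1176). C5ar1, the receptor of complement fragment C5a, rose by 5.05 in vavCre and was at 25.3 and 5.43 against 77.2, 204, 119.5 and 46.2 in adults, without overlap (difference 2.91, limma adjusted p = 0.166). Ccl7, a monocyte chemokine, rose by 6.77 in vavCre and was at 0 and 2.17 against 80.6, 2.22, 31.1 and 62.9 (difference 3.93). Its groups did not overlap, by a narrow margin in CreERT2 library 2, which held 1 read. Vstm4, a receptor of the immunoglobulin superfamily, fell by 5.68 in vavCre. In adults it was at 191 and 110.3 against 61.3, 17.7, 46.1 and 24.4, without overlap (difference -2.09, limma adjusted p = 0.410). Age, Cre driver and depth all differ between the comparisons and cannot be told apart.

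A further comparison in the same table allowed a direct test. Day-7 red pulp macrophages with the label Spic_KO (2 libraries against 3 RPM_d7_Spic_WT libraries) were fitted together with the adult libraries, and the difference between the CreERT2 and the Spic_KO effects was tested. Spic_KO itself changed 658 genes (3.95%), 245 higher (1.47%) and 413 lower (2.48%). Of the 24 adult calls, 8 were also called in Spic_KO in the same direction and 0 in the opposite one: Clec7a, Cox6a2, Ftl1-ps1, Glipr1, Hba-a2, Itgad, Slpi and Txn1. These are 33.3% of the adult calls and 1.22% of the Spic_KO calls. The effects differed for 101 genes (0.607%), with the CreERT2 effect above the Spic_KO effect for 72 (0.432%) and below it for 29 (0.174%). Of the 101, 93 were called in Spic_KO and 5 in adults.

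The 5 were Dab2, Gm15922, Itgad, Mmp13 and Slpi. Dab2 rose by 4.16 in CreERT2 and was at 0.82 in Spic_KO (difference of effects 3.34, limma adjusted p = 0.0183). Mmp13 differed by 6.14 (interval 4.0 to 8.29, limma adjusted p = 0.00580), with effects of 3.58 and -2.56. The effect of -2.56 in Spic_KO did not itself pass (limma adjusted p = 0.0587). Itgad fell in both, with effects of -4.30 in CreERT2 and -8.83 in Spic_KO, and the latter was larger (limma adjusted p = 0.0173). Slpi also fell in both. It was at 0 in both Spic_KO libraries, so its fitted effect there depends on the pseudocount (adjusted p of the difference = 2.73e-06).

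Ccr3, Vcam1 and Pparg fell in Spic_KO and not in CreERT2, and the effects differed. Ccr3 was at -7.99 in Spic_KO and -0.41 in CreERT2 (difference of effects 7.58, limma adjusted p = 8.66e-08). Vcam1 was at -1.49 and 0.20 (difference 1.70, adjusted p = 0.00133), and Pparg at -3.33 and 0.86 (difference 4.20, limma adjusted p = 0.000378). The MHC class II genes H2-Aa, H2-Ab1 and H2-Eb1 rose in Spic_KO by 3.64, 3.82 and 3.49 and stood at 0.07, -0.08 and -0.10 in CreERT2. Fabp4 was at -3.40 in Spic_KO without passing (adjusted p = 0.0595), and its effects were not shown to differ (-1.72, interval -4.58 to 1.15). The groups differ in age as well as genotype, which cannot be told apart in this test.

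**Figure D5:**
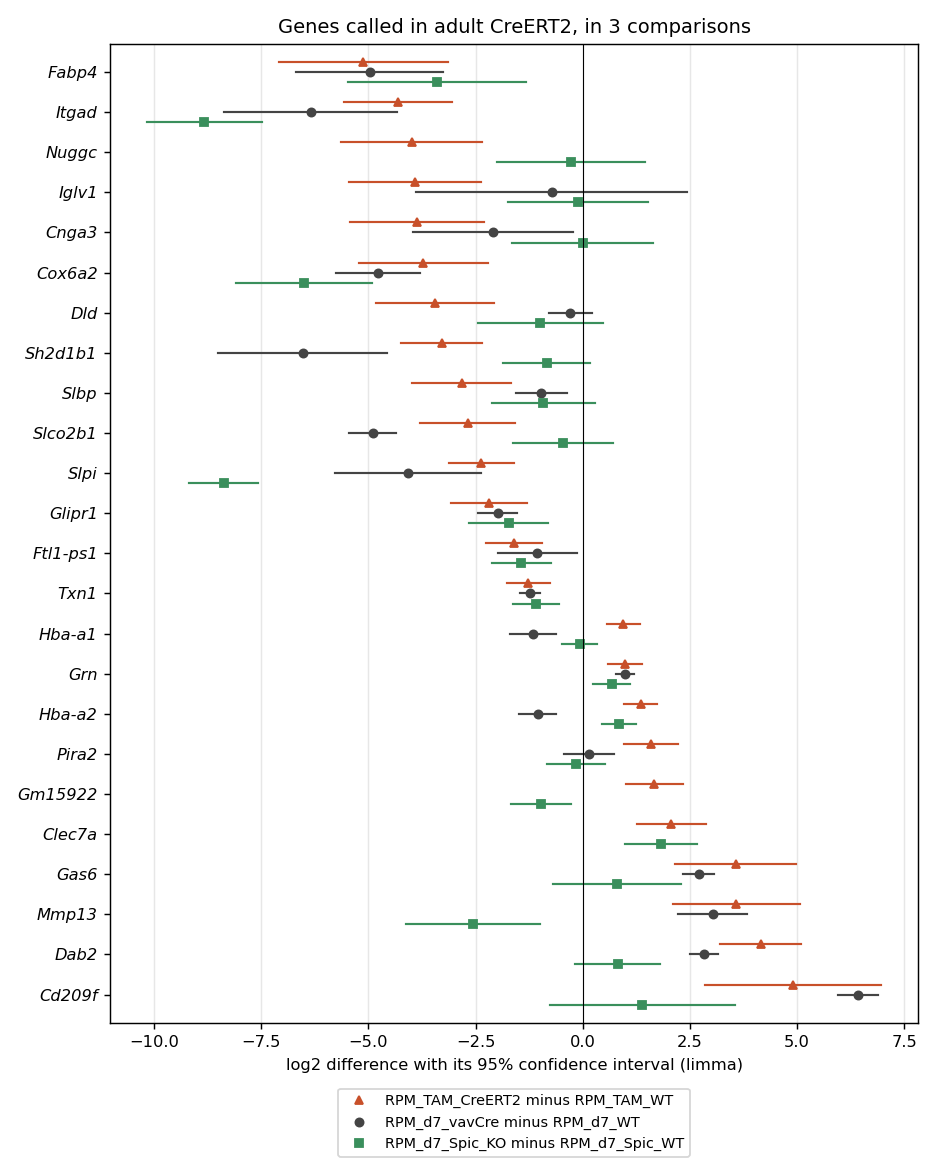
Log2 differences with 95% confidence intervals (limma) on the horizontal axis for the 24 genes called in adults; triangles are RPM_TAM_CreERT2 against RPM_TAM_WT, circles RPM_d7_vavCre against RPM_d7_WT and squares RPM_d7_Spic_KO against RPM_d7_Spic_WT. Fabp4 lies below 0 in all 3 comparisons, while Mmp13 is above 0 in 2 of them and below in Spic_KO. Neither gene was called in Spic_KO.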

How the data were processed

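The 6 adult libraries were analysed in a deposited table of 25700 genes and 11 libraries. Values are a signal scaled per library by the authors, read as normalised read counts. The table names no unit, so this comes from the values: 1 scale factor per library turned 97.1 to 100% of the adult values into whole reads (tolerance 0.1, judged on values up to 500 reads). STAR, edgeR and GRCm38 appear in the submitters' processing notes without roles or versions. No column was left unused (0). Coordinates are 1-based, from GENCODE vM21 (GRCm38), in which 25587 identifiers were found. No source records strand-aware counting, and near-identical genes may share reads.

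The test covered 16650 genes that reached 1 in 2 or more of the 11 libraries. 4321 were at 0 in all libraries, and 101 tested genes were at 0 in all 6 adult libraries. limma 3.58.1 (R 4.3.3; trend and robust moderation) fitted 1 mean per group to log2(value + 1), with 7 residual degrees of freedom, and genes were called where the Benjamini-Hochberg adjusted p was below 0.05. The pseudocount of 1 understates changes of low genes. Because the table holds no raw counts, edgeR 4.0.16 and DESeq2 1.42.0 on recovered reads were alternatives only. The other table (12 libraries) was fitted likewise for vavCre. The fit was tested on simulated data.

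Named genes were Pparg, Rxra, Rxrb, Spic, all called genes (also those called by edgeR alone) and the 10 widest differences each way without overlap and with a mean of at least 20. Added were up to 3 of the highest members of each of 34 gene lists and the 10 largest vavCre changes each way. Left out of these rankings were Y-linked genes and Xist, antigen receptor segments, small RNAs, predicted genes and those of ribosomes and mitochondria. Other list members are given to describe their list and were chosen after their values were seen. Members and lists were chosen with earlier results of these data known. Ahsp, an erythroid gene, was not analysed here, and a few genes of the rule are not reported here. Alternatives were no filter, a filter at 10, pseudocounts of 0.1 and 5, the adult libraries alone, median-ratio scaling, no robust moderation, library weights, edgeR (TMM or RLE), DESeq2, a log2 change of at least 1, and each library left out. Equal sums without globins and the alternatives in the vavCre table were added after seeing the data. Counting intervals (95%) and the floor of 3 reads per library cover counting error only.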

Additional observations from a re-analysis of the deposited data

Results flagged for a closer look

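Among 153 named genes, 10 had a CreERT2 library that stood apart from the other 3 by Dixon's ratio at its 95% critical value, a test that chance alone fails about 1 time in 20 groups. The library's level was 378 for Blnk, 5.14 for Btnl6, 339 for Clec4n, 1528 for Ly6c1, 15.5 for Ly6d, 1.88 for Mmp25, 132 for Nlgn3, 22.6 for Sh2d1b1, 53.2 for Shb and 4.70 for Snx31. Clec4n and Ly6d were low and the rest high in that library. Where all other CreERT2 libraries hold no read, the ratio is at its maximum whatever the level. Btnl6 and Mmp25 are such cases, with 4 and 2 reads in CreERT2. The summed level of dendritic cell markers was high in 1 CreERT2 library as well, at 570.

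The CreERT2 effect in adults differed from the Spic_KO effect in day-7 pups for the following named genes by limma's test of the difference itself, given as a log2 difference of effects. It was 7.58 for Ccr3 (CreERT2 -0.41, Spic_KO -7.99), 6.14 for Mmp13, 6.01 for Slpi (at 0 in both Spic_KO libraries), 5.60 for Mpzl1 (CreERT2 -0.59, Spic_KO -6.19), 4.52 for Itgad, 4.20 for Pparg and 3.34 for Dab2. Smaller differences were 2.65 for Gm15922, 1.89 for Clec4a1, 1.70 for Vcam1 and 1.68 for C1qb. The difference was negative for H2-Ab1 (-3.90), H2-Eb1 (-3.59), H2-Aa (-3.57) and Psap (-1.61). Age and genotype cannot be told apart in them.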

How the results depend on the processing

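The number of genes called between adult CreERT2 and wild type (24) was 5 without a filter, 14 and 9 with pseudocounts of 0.1 and 5, 37 in the 6 adult libraries alone (24 higher and 13 lower, 17 of them shared), 4 without robust moderation and 135 by DESeq2, which moved the median of all genes by 0.10. It stayed within 1.5 times of 24 under the other alternatives that kept all libraries, from 19 with library weights to 24. Leaving out 1 library gave 2 to 18 calls: 2 without wild-type replicate 1, 18 without wild-type replicate 3, and 5, 6, 11 and 6 without CreERT2 replicates 1, 2, 4 and 5. A lone wild-type library is assumed there to vary like the other groups. Most genes called without wild-type replicate 3 were not among the 24, and most of the 24 were not called in that fit. The 101 genes whose effect differed from Spic_KO became 155 by edgeR with RLE factors and 548 by DESeq2, and 34 to 115 with 1 adult library left out (34 without wild-type replicate 1, 66 and 63 without CreERT2 replicates 4 and 5). The 835 vavCre calls became 536 to 649 with 1 day-7 library left out, 555 without wild-type replicate 2 and 536 without vavCre replicate 2. The difference in depth had the same sign in the number of genes above 0. No named gene changed direction while called. Of the values of called genes under alternatives, 221 stayed past the threshold and 203 did not. Of those of genes not called, 34 came to pass it and 2278 did not. The causes were not tested. No paired analysis was possible because the adult groups share only replicate number 1 (numbers 1, 2, 4 and 5 against 1 and 3). With 692903 to 1668714 reads per CreERT2 library, genes of a few reads could not be compared.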
